A study of Mus musculus with 15 samples.

Results

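Junb and Zfp36 are immediate early genes, and their levels were followed in the livers of 15 mice together with those of 4 further genes of the same kind, Fos, Egr1, Ier2 and Dusp1. The genes were taken by name from a set of 10 immediate early genes, of which the table of 2545 genes holds 6, and Fosb, Ier3, Atf3 and Btg2 were not analysed here. In none of the 4 treatments did any of the 6 genes differ from vehicle beyond the FDR threshold. The largest differences were in Egr1 under conjugated estrogens (6.63-fold above vehicle), in Dusp1 and Zfp36 under conjugated estrogens with bazedoxifene (3.77-fold and 2.57-fold) and in Junb under conjugated estrogens (2.83-fold). Junb and Ier2 were above the vehicle mean in 12 of 12 treated mice, Zfp36 in 11, Egr1 in 8, Dusp1 in 7 and Fos in 6. These counts use the same 3 vehicle mice, and the matching counts over all genes were not computed.

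The study compared estrogenic treatments in ovariectomized mice, with RNA sequencing of whole liver from 3 mice in each of 5 groups. All 15 mice were C57BL/6 females that ate a high-fat diet (45% of calories from fat) from the age of 8 weeks, were ovariectomized at 10 weeks and were then treated for 6 weeks, so the vehicle mice lacked ovaries and ate the same diet. Vehicle mice (Veh) received the solvents alone, and E2 mice received estradiol from slow-release pellets, with a stated dose of 5 μg per kg per day. The paper also gives the content of a pellet but does not relate it to that dose. The E2 dose that the mice received is therefore uncertain. CE mice received conjugated estrogens, a mixture of estrogens from pregnant mare urine, at 2.5 mg per kg per day by osmotic minipump. BZA mice received bazedoxifene, a selective estrogen receptor modulator, at 3 mg per kg per day, and CE+BZA mice received both, with no separate doses given for that group. No intact or chow-fed mice are among the samples. By the labels the Veh mice are numbers 1, 4, 7, the E2 mice 3, 4, 5, the CE mice 3, 6, 7, the BZA mice 1, 3, 4 and the CE+BZA mice 1, 2, 3, and values are listed in the order of these numbers. Each column is the whole liver RNA of 1 mouse, so fewer cells of a type and less RNA per cell cannot be told apart.

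The deposited value is a log2 level after DESeq scaling of the mice, set for each gene against its own median among the 15 mice. A value of 0 is thus the median mouse, 1 is a 2-fold higher level, and levels cannot be compared between genes. All 2545 genes differed from Veh by more than 1 on the log2 scale in at least 1 treatment, so the table is a selection by fold change. Each of the 6 genes therefore had to show such a difference somewhere, and shares over the 2545 genes are not shares of the transcriptome. The reads per mouse are not in the table, and the depth behind a value is unknown. In 1045 of the genes (41.1%) at least 2 mice shared the lowest value of the gene, but in 0 of the 6 immediate early genes. The table holds 1 of 9 hepatocyte markers (Tat), so the labelled tissue could not be checked against its defining genes.

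Immediate early genes are transcribed within minutes of a stimulus by factors that are already in the cell, and their mRNAs decay quickly. Fos and Junb encode subunits of the transcription factor AP-1, Egr1 encodes a zinc finger transcription factor, and Ier2 encodes a nuclear protein of the early growth response. Other members close the response down: the Zfp36 protein (tristetraprolin) binds AU-rich elements of mRNAs and hastens their decay, and the Dusp1 protein removes phosphates from MAP kinases. In liver these genes are known for their response to growth factors, cytokines and partial hepatectomy.

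The sequences just before the transcription start are shown because immediate early genes are read from short elements near the start, and the members were not alike there. RefSeq (GRCm38.p6) gave a promoter for 4 of the 6 genes, all but Egr1 and Ier2. The 250 bases before the start are written 5′ to 3′ on the strand of the gene, and the last base is next to the start. Capitals mark matches, on either strand, to the cAMP response element TGACGTCA, its core TGACG, the AP-1 element TGANTCA, the Sp1 box GGGCGG, the Egr element GCGNGGGCG, the CArG box of serum response factor, the E-box CACGTG, the estrogen response element and its arm GGTCA. The windows are chr8:84978749-84978998 for Junb, chr7:28379229-28379478 for Zfp36, chr12:85473640-85473889 for Fos and chr17:26508473-26508722 for Dusp1, and only the Fos gene is on the plus strand.
Junb: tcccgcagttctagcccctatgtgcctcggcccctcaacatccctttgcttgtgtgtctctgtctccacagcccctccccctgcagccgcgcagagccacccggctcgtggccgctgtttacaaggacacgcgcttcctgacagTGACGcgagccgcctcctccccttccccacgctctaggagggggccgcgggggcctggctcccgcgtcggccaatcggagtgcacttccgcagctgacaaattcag
Fos: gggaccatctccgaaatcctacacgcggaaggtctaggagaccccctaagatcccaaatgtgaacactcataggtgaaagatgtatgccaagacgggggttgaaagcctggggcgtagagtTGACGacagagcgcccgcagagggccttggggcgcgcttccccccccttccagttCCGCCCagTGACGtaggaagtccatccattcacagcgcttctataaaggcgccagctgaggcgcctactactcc
Zfp36: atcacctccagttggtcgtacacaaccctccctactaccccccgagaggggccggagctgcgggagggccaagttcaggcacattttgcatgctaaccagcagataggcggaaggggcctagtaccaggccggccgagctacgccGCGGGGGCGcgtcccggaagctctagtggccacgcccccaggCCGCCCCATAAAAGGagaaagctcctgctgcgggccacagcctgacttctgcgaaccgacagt
Dusp1: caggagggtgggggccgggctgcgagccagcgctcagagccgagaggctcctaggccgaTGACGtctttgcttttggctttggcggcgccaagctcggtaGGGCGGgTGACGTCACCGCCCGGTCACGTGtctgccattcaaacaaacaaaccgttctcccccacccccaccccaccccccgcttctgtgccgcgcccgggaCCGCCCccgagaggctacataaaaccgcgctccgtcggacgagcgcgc

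The Junb window held a single match, TGACG at 106 to 102 bases before the start. The Fos window held TGACG at 129 to 125 and at 66 to 62 bases before the start and an Sp1 box between 74 and 69. TGACG occurred in 17.8% and the Sp1 box in 32.7% of the 32851 RefSeq promoters of this length. The Zfp36 window held no TGACG but an Egr element (GCGNGGGCG, at 105 to 97 bases before the start) and a CArG box (at 58 to 49), whose first base is the last base of an Sp1 box. These motifs were in 4.7% and 1.47% of all promoters. The Dusp1 window held the whole cAMP response element (at 143 to 136 bases before the start, in 1.55% of promoters), which contains 2 of its 3 matches to TGACG. It also held 3 Sp1 boxes and an E-box at 126 to 121 that overlaps a GGTCA at 129 to 125. The E-box was in 6.02% and GGTCA in 35.2% of promoters. No member window matched the AP-1 element TGANTCA (6.75% of promoters) or the full estrogen response element (0.0639%), which says only that these letters are not in these windows. All 4 windows were rich in G and C (58.4% to 68.4%, against a median promoter of 52.4%). A match is a string of letters and not a measured site.

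Junb (protein coding, chromosome 8, 84976909 to 84978748 on the minus strand of GRCm38) was above the vehicle mice without overlap in CE, BZA and CE+BZA. The Veh mice were at −0.33, −0.85 and −1.34 (mean −0.84 ± 0.50 SD, n = 3) and the E2 mice at −0.71, 0.00 and −0.32 (mean −0.34 ± 0.35). The CE mice were at 0.73, 0.38 and 0.89 (mean 0.67 ± 0.26). The BZA mice were at −0.20, 0.07 and 0.91 (mean 0.26 ± 0.58), and the CE+BZA mice at −0.14, 0.52 and 0.63 (mean 0.34 ± 0.42). The lowest of these 9 mice was above the highest Veh mouse, and E2 mouse 3 alone of the treated mice was within the Veh range. From low to high the group means ran Veh, E2, BZA, CE+BZA and CE, and no neighbours in that order differed beyond their spread (FDR 0.598 to 0.978 by limma).

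On the log2 scale the Junb mean was 0.50 above Veh in E2 (SE 0.48, FDR 0.598), 1.50 above in CE (FDR 0.196), 1.10 in BZA (FDR 0.296) and 1.17 in CE+BZA (FDR 0.220), all by limma with the same SE. Each of the last 3 differences was more than 2-fold and had an unadjusted p under 0.05 (0.00605, 0.0351 and 0.0254), and the adjustment over all genes left none past the threshold. Without BZA mouse 4 the BZA difference was 0.77 (unadjusted p = 0.149 by limma). Without Veh mouse 7 the CE and CE+BZA differences were 1.25 and 0.92. With all 12 treated mice against the 3 Veh mice the difference was 1.07 (SE 0.38, FDR 0.194). An exact two-sided permutation test of that difference gave p = 0.00879, where the smallest p that 455 arrangements allow is 0.0044. The table is a selection by fold change from the same Veh mice, and the members were chosen with earlier results known. The limma and permutation p-values, intervals and counts of Junb and of the other members are therefore descriptions and not independent support. All 12 treated mice were above the Veh mean and 11 of them above the highest Veh mouse. Without Veh mouse 7, the lowest of the Veh mice, the difference of the treated mice was 0.82, and of 15 fits that left out 1 mouse each it was the only one without an unadjusted p under 0.05.

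**Figure D1:**
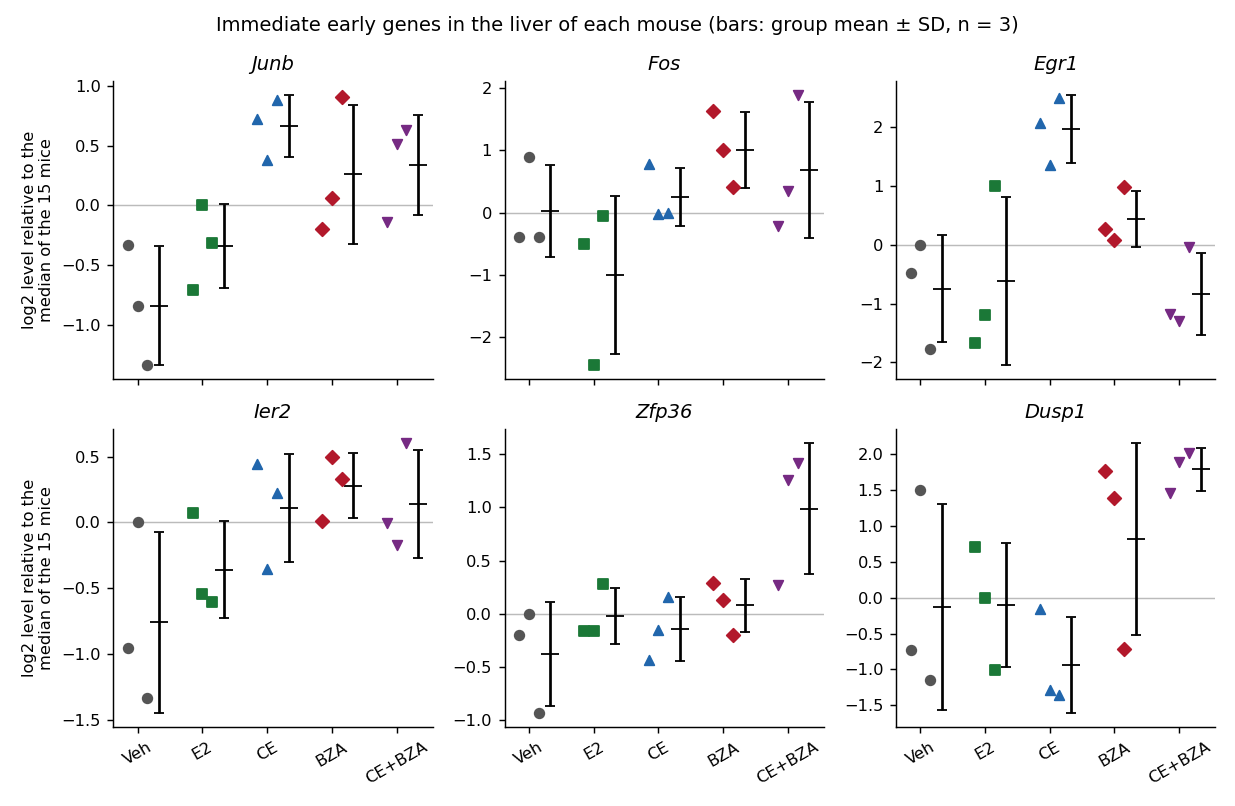
Log2 level of each gene relative to its median over the 15 mice (y axis, a scale of its own for each gene) in the 5 groups (x axis). Each point is 1 mouse and the bars give the group mean ± SD of 3 mice; the 3 CE mice are the highest in Egr1 and the 3 CE+BZA mice are above every Veh mouse in Zfp36.

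Fos (chromosome 12, 85473890 to 85477274, plus strand), which encodes the partner of the Jun proteins in AP-1, did not follow Junb in E2. The Veh mice were at −0.39, 0.89 and −0.39 (mean 0.03 ± 0.74 SD, n = 3) and the E2 mice at −0.51, −2.45 and −0.05 (mean −1.0 ± 1.27). The CE mice were at 0.77, −0.03 and 0.00 (mean 0.25 ± 0.46). The BZA mice were at 1.63, 1.0 and 0.42 (mean 1.01 ± 0.61), and the CE+BZA mice at −0.21, 0.35 and 1.89 (mean 0.68 ± 1.09). All treated groups overlapped the Veh mice, and E2 mouse 4 was far below every other mouse. The largest differences from Veh were −1.04 in E2 (SE 0.68, FDR 0.426) and 0.98 in BZA (FDR 0.375), by limma. Without E2 mouse 4 the E2 difference was −0.31. Over all treated mice the Fos difference was 0.20 (exact permutation p = 0.708), with 6 of 12 mice above the Veh mean. The order of the means was E2, Veh, CE, CE+BZA and BZA, and neighbours did not differ beyond their spread (FDR 0.426 to 0.907 by limma). Fos differed from Veh by more than 1 only in E2, so comparisons with E2 are not independent of the selection of the table.

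Egr1 (chromosome 18, 34861207 to 34864956, plus strand) was the member furthest from vehicle in any group, and it was so with CE alone. The Veh mice were at −0.48, 0.00 and −1.77 (mean −0.75 ± 0.91 SD, n = 3), and the CE mice at 2.08, 1.36 and 2.51 (mean 1.98 ± 0.58). The BZA mice were at 0.26, 0.08 and 0.98 (mean 0.44 ± 0.48). The E2 mice were at −1.68, −1.19 and 1.01 (mean −0.62 ± 1.43), and the CE+BZA mice at −1.17, −1.30 and −0.03 (mean −0.83 ± 0.70). The CE and BZA mice were all above the Veh mice, the 3 CE mice were above all other 12 mice, and the CE+BZA and E2 mice overlapped with Veh. The difference from Veh was 2.73 in CE (SE 0.68, unadjusted p = 0.000971, FDR 0.145 by limma) and 1.19 in BZA (FDR 0.314). It was 0.13 in E2 and −0.08 in CE+BZA, with 95% intervals of −1.31 to 1.57 and −1.53 to 1.36. In the order of the means (CE+BZA, Veh, E2, BZA, CE) only BZA and CE were neighbours with an unadjusted p under 0.05 (difference 1.54, FDR 0.425 by limma). Over all treated mice the difference was 0.99 (exact permutation p = 0.268), with 8 of 12 mice above the Veh mean. Without Veh mouse 7 it was 0.48, and the BZA difference was 0.68.

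Ier2 (chromosome 8, 84661331 to 84662852, minus strand) had a mean above vehicle in all 4 treatments. The Veh mice were at −0.96, 0.00 and −1.34 (mean −0.76 ± 0.69 SD, n = 3) and the E2 mice at 0.07, −0.55 and −0.60 (mean −0.36 ± 0.37). The CE mice were at 0.45, −0.35 and 0.23 (mean 0.11 ± 0.41). The BZA mice were at 0.01, 0.50 and 0.33 (mean 0.28 ± 0.25), and the CE+BZA mice at 0.00, −0.17 and 0.61 (mean 0.14 ± 0.41). Only the BZA mice were all above the Veh mice, the highest of which was at the median of the 15. The difference from Veh was 1.04 in BZA (SE 0.48, unadjusted p = 0.0458, FDR 0.297 by limma), 0.91 in CE+BZA, 0.87 in CE and 0.40 in E2. For all treated mice it was 0.81 (FDR 0.256 by limma; exact permutation p = 0.0308), and 12 of 12 mice were above the Veh mean. Without Veh mouse 7 the difference of all treated mice was 0.52, and without Veh mouse 4 it was 1.19. The BZA difference was 0.76 without Veh mouse 7 (unadjusted p = 0.142 by limma). In 6 of 15 fits that left out 1 mouse each, the BZA difference had an unadjusted p under 0.05. The order was Veh, E2, CE, CE+BZA and BZA, again with no neighbours that differed beyond their spread (FDR 0.684 to 1 by limma). Ier2 differed from Veh by more than 1 only in BZA, so its p there is not independent of the selection of the table.

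Zfp36 (chromosome 7, 28376784 to 28379228, minus strand) was highest in the combination group. An antisense gene, Gm44710, overlaps it by 249 bases on the opposite strand, and the use of strand in counting is not given in the sources used here, so reads of both cannot be told apart in that stretch. The Veh mice were at −0.20, 0.00 and −0.94 (mean −0.38 ± 0.49 SD, n = 3) and the CE+BZA mice at 0.27, 1.26 and 1.42 (mean 0.99 ± 0.62). The E2 mice were at −0.17, −0.17 and 0.28 (mean −0.02 ± 0.26). The CE mice were at −0.44, −0.15 and 0.16 (mean −0.14 ± 0.30), and the BZA mice at 0.29, 0.13 and −0.20 (mean 0.08 ± 0.25). The CE+BZA mice were all above the Veh mice, and CE+BZA mice 2 and 3 were above all other mice, while CE+BZA mouse 1 was within the range of E2 and BZA. The difference of CE+BZA from Veh was 1.36 (SE 0.47, unadjusted p = 0.00997, FDR 0.196 by limma). In E2, CE and BZA it was 0.36, 0.24 and 0.45, with 95% intervals that reached at most 1.45. Over all treated mice it was 0.60 (exact permutation p = 0.0835), with 11 of 12 mice above the Veh mean and 7 above the highest Veh mouse, and without Veh mouse 7 the difference was 0.33. No neighbours in the order of the means (Veh, CE, E2, BZA, CE+BZA) differed beyond their spread (FDR 0.61 to 0.971 by limma). Zfp36 differed from Veh by more than 1 only in CE+BZA, so its p there is not independent of the selection of the table.

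Dusp1 (chromosome 17, 26505591 to 26508472, minus strand) was high in CE+BZA as well, but its vehicle mice were far apart. The Veh mice were at −0.73, 1.50 and −1.15 (mean −0.13 ± 1.43 SD, n = 3) and the E2 mice at 0.70, 0.00 and −1.01 (mean −0.10 ± 0.86). The CE mice were at −0.16, −1.29 and −1.36 (mean −0.94 ± 0.67). The BZA mice were at 1.77, 1.39 and −0.72 (mean 0.82 ± 1.34), and the CE+BZA mice at 1.45, 1.89 and 2.02 (mean 1.79 ± 0.30). Veh mouse 4 lay among the CE+BZA mice, so no group was clear of Veh, and all 3 CE mice were below all 3 CE+BZA mice. The difference from Veh was 1.92 in CE+BZA (SE 0.75, unadjusted p = 0.0205, FDR 0.211 by limma), 0.94 in BZA and −0.81 in CE. Over all treated mice it was 0.52 (exact permutation p = 0.558), with 7 of 12 mice above the Veh mean, and it ran from 0.01 without Veh mouse 7 to 1.33 without Veh mouse 4. The order was CE, Veh, E2, BZA and CE+BZA, with neighbours at an FDR of 0.532 to 1 by limma. Dusp1 too differed from Veh by more than 1 only in CE+BZA, so the same limit holds for its p there.

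**Figure D2:**
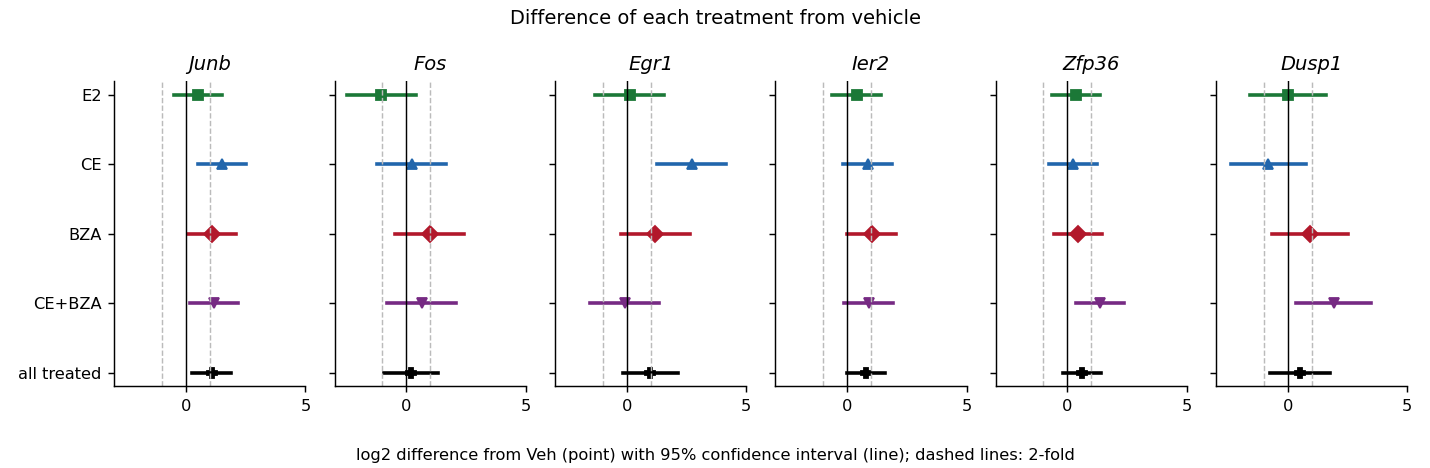
Log2 difference from Veh (x axis) of each treatment and of all treated mice (y axis) in 6 panels, 1 per gene, with the 95% confidence interval of limma as a line and a 2-fold difference as dashed lines. The intervals of Junb in CE, BZA, CE+BZA and all treated mice, of Egr1 in CE, of Ier2 in BZA, and of Zfp36 and Dusp1 in CE+BZA are above 0 before adjustment for the number of genes.

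By an FDR under 0.05 with a fold change above 2, limma called 0 of the 6 immediate early genes in each treatment and in all treated mice. Of all 2545 genes it called 0.196% in E2, 0.157% in CE, 0% in BZA, 0.118% in CE+BZA and 0.236% for all treated mice, so few genes of any kind passed. At an unadjusted p under 0.05 with the same fold change, 0 members were higher in E2 (6.52% of all genes), and 2 in CE, Junb and Egr1 (10.1%). In BZA 2 members were higher, Junb and Ier2 (8.92%), and in CE+BZA 3, Junb, Zfp36 and Dusp1 (11.6%). For all treated mice 1 member was higher, Junb (6.6%). In the other direction 0 members passed in any of the comparisons, where 8.61%, 8.45%, 7.47%, 9.55% and 7.82% of all genes did in E2, CE, BZA, CE+BZA and all treated mice.

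Counted by mice, the 3 treated mice were above the 3 Veh mice in 0 members for E2 (10.3% of all genes), in Junb and Egr1 for CE (13%), in Junb, Egr1 and Ier2 for BZA (10.5%) and in Junb and Zfp36 for CE+BZA (14.8%). For CE, BZA and CE+BZA the members' shares were above those of all genes, but they are shares of 6 genes chosen with earlier results of these data known. Zfp36 and Dusp1 met the fold selection of the table only through CE+BZA, and Ier2 only through BZA. Their counts in those groups, by p or by mice, are therefore not support. The 4 treatments were compared with the same 3 Veh mice, so their counts are not separate evidence. An exact permutation test of 3 against 3 mice cannot go below p = 0.1, which it reached in these 7 cases.

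Direct comparisons between treatments asked where the members differed between treatment groups. E2, CE and BZA had different doses, and E2 came from pellets and CE from minipumps. In pairs with E2, compound, dose and delivery therefore cannot be told apart. Of 36 tests (6 genes in 6 pairs), 10 had an unadjusted p under 0.05 and 0 an FDR under 0.05 by limma, the lowest FDR being 0.133. The Egr1 difference of CE+BZA from CE was −2.81 (SE 0.68, unadjusted p = 0.000748, FDR 0.133), and that of CE from E2 was 2.60 (FDR 0.31), by limma. These were the 2 widest gaps of Egr1 between treatments, and in both the CE mice did not overlap with the others. Dusp1 was 2.72 higher in CE+BZA than in CE (SE 0.75, FDR 0.157), 1.89 higher than in E2 (FDR 0.283), and 1.75 higher in BZA than in CE (FDR 0.425). Egr1 and Dusp1 thus stood in opposite order in CE and CE+BZA.

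Zfp36 was 1.13 higher in CE+BZA than in CE (SE 0.47, FDR 0.293) and 1.0 higher than in E2 (FDR 0.374), by limma. Without CE+BZA mouse 3 these differences were 0.91 and 0.78. Against BZA alone the Zfp36 difference was 0.91, with an interval of −0.08 to 1.90. Fos was 2.02 higher in BZA than in E2 (SE 0.68, FDR 0.266) and 1.68 higher in CE+BZA than in E2 (FDR 0.289) by limma, and without E2 mouse 4 the differences were 1.30 and 0.96. Junb had no pair with an unadjusted p under 0.05, the widest being CE over E2 (1.01, interval 0.00 to 2.02), and Ier2 had none either, with differences of at most 0.64.

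Against all genes the members' counts at an unadjusted p under 0.05 were 1 of 6 for CE and E2 (9.12% of all genes), 1 for BZA and E2 (11.2%) and 3 for CE+BZA and E2 (13.2%). They were 2 for BZA and CE (11.4%), 3 for CE+BZA and CE (14.5%) and 0 for CE+BZA and BZA (8.76%). A pair that includes the group through which a gene met the fold selection is not independent of that selection. For CE+BZA against BZA the intervals of all 6 genes included 0, with bounds from −2.72 to 2.55.

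Because CE and BZA were given alone and together, the departure of the combination from the sum of both could be tested. For Egr1 it was −4.00 on the log2 scale (SE 0.97, 95% interval −6.05 to −1.96, unadjusted p = 0.000706, FDR 0.18 by limma), where the differences from Veh were 2.73 with CE, 1.19 with BZA and −0.08 with both. For Junb it was −1.43 (interval −2.85 to 0.00, FDR 0.41 by limma), with group means of 0.67 with CE, 0.26 with BZA and 0.34 with both. Dusp1 had a departure of 1.78 and Zfp36 of 0.67, with intervals of −0.46 to 4.02 and −0.73 to 2.08, and the Dusp1 departure was 0.97 without Veh mouse 4. Ier2 and Fos were at −1.01 and −0.55, with intervals that included 0. Egr1 was the 1 member with an unadjusted p under 0.05, as were 12.3% of all genes, and the doses of the combination are not given, so a departure cannot be told apart from a dose that differs from those given alone.

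**Figure D3:**
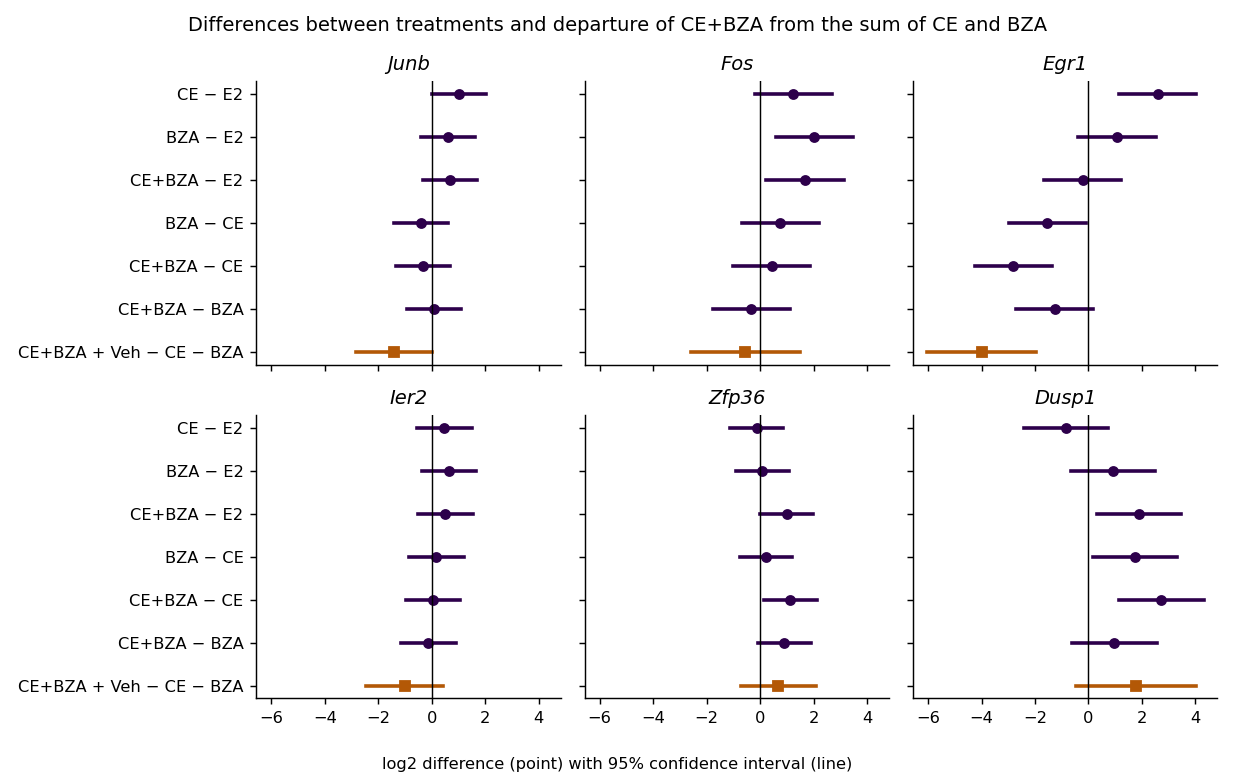
Log2 difference between treatments (circles) and departure of CE+BZA from the sum of the CE and BZA differences (squares) on the x axis, with 95% confidence intervals of limma as lines, in 6 panels, 1 per gene. Egr1 has its departure at −4.00, and Dusp1 its widest difference, 2.72, between CE+BZA and CE.

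The relation of Junb and Zfp36 across mice did not pass the test. Over the 15 mice Pearson's r was 0.43 (permutation p = 0.105) and Spearman's rho 0.21 (p = 0.462). Without Veh mouse 7 and BZA mouse 4, the mice farthest from the Junb median, r was 0.33 (permutation p = 0.276) and rho 0.21 (p = 0.494). Within the 12 treated mice r was 0.14 (permutation p = 0.669) and rho −0.18 (p = 0.571), and the deviations from the group means had an r of 0.37. Over all mice the r of Zfp36 with Dusp1 and of Junb with Egr1 and Ier2 was 0.64 each, and in the deviations from the group means it was 0.32, 0.51 and 0.20. Egr1 and Dusp1 had an r of −0.41. These values between other members are descriptions over 15 mice that share group, scaling and the selection of the table.

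**Figure D4:**
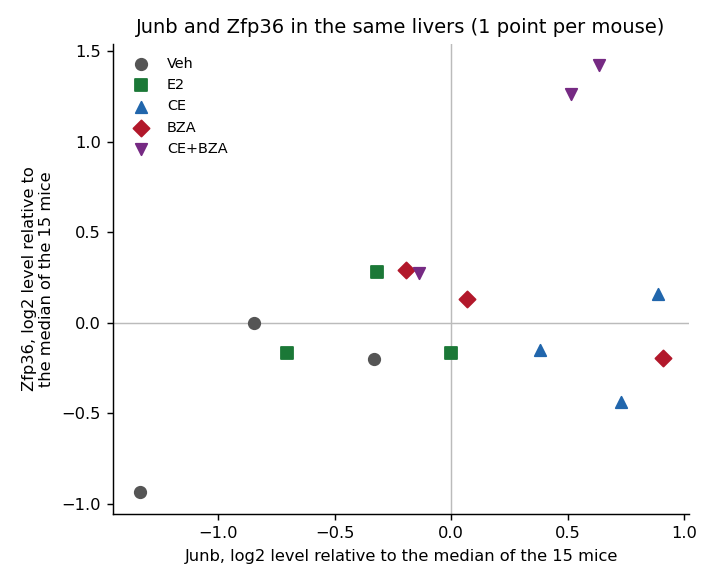
Level of Zfp36 (y axis) against Junb (x axis) in the same liver, both as log2 relative to the median of the 15 mice, with 1 point per mouse and a marker for each group. Veh mouse 7 is lowest in both genes, the CE mice are at 0.38 to 0.89 in Junb and at −0.44 to 0.16 in Zfp36, and CE+BZA mice 2 and 3 are highest in Zfp36.

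Veh mouse 7 was the lowest of the 15 mice in 4 of the 6 genes, and its mean over them was −1.15, against −0.52 and 0.26 in the other Veh mice. It was also the lowest mouse by the mean of the other AP-1 and bZIP factors (−1.37) and of the circadian, glucocorticoid and fasting genes (−1.16). Other mice stood apart in markers of other cells. CE mouse 3 had a mean of 4.60 over 14 of 17 monocyte and neutrophil markers, where the other mice were between −0.71 and 0.89. BZA mouse 3 had a mean of 5.85 over 9 of 11 pancreas markers and of 4.15 over 7 of 10 adipocyte markers. Without CE mouse 3 and BZA mouse 3 the Junb differences from Veh were 1.47 in CE and 1.19 in BZA, the Egr1 difference in CE was 2.68, and the Ier2 difference in BZA was 0.93. Neither mouse was in the CE+BZA group, and the part of other cells in the levels of the members was not tested in any group.

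The remaining marker lists are given by their mouse means, and the erythroid, T and NK cell and B and plasma cell lists also by group medians. The table holds 3 of 15 Kupffer cell and macrophage markers (mouse means −1.35 to 1.29), 3 of 13 T and NK cell markers (−1.03 to 1.01) and 5 of 11 B and plasma cell markers (−0.98 to 1.39). It holds 2 of 12 stellate and fibroblast markers (−0.86 to 1.47), 3 of 7 cholangiocyte markers (−1.94 to 1.86), 8 of 13 erythroid markers (−1.28 to 1.60) and 0 of 10 endothelial markers. The erythroid markers had medians above Veh of 1.60 for CE and 1.55 for BZA, 0.81 for E2 and 0.16 for CE+BZA, and 0 passed the FDR threshold by limma. At an unadjusted p under 0.05 with a fold above 2, 7 of these 8 markers were higher in CE (10.1% of all genes) and 3 in BZA (8.92%). In CE+BZA 0 were higher (11.6%), and in E2 0 were higher (6.52%) and 1 lower (8.61%). In CE, BZA and CE+BZA the differences of Egr1 were 2.73, 1.19 and −0.08 and those of Junb 1.50, 1.10 and 1.17. They were 0.24, 0.45 and 1.36 for Zfp36 and −0.81, 0.94 and 1.92 for Dusp1. For Ier2 they were 0.87, 1.04 and 0.91, and for Fos 0.22, 0.98 and 0.64. The T and NK cell markers had medians of 0.29 in E2, 1.01 in CE, 0.87 in BZA and 1.03 for CE+BZA. Those of the B and plasma cell markers were 0.07 in E2, 1.09 in CE, 0.60 in BZA and −0.52 for CE+BZA. Their part in the levels of the immediate early genes was not tested.

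The other AP-1 and bZIP factors were on the same side of Veh as Junb. Of 19 such genes, 3 were described, Jund, Cebpb and Cebpd, of which Cebpb and Cebpd encode C/EBP factors of the acute phase response. All 3 were above Veh in each treatment, with medians of 0.35 with E2, 0.76 with CE, 1.16 with BZA and 1.08 with CE+BZA, where the medians of all genes were 0.00, 0.06, 0.11 and 0.08. Cebpb had the largest difference, 1.34 in CE+BZA, and Jund, a Jun protein that resting cells also contain, was at 0.26 in CE and 1.16 in BZA. The 3 factors passed the FDR threshold in 0 comparisons by limma, while Jund in BZA (8.92% of all genes) and Cebpb in CE+BZA (11.6%) were higher at an unadjusted p under 0.05 with a fold above 2.

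Of 49 other immediate early and delayed early genes the table holds 11, and 10 of them were above Veh in every treatment. Their median difference was 0.31 with E2, 0.44 with CE, 0.69 with BZA and 1.19 with CE+BZA. At an unadjusted p under 0.05 with a fold above 2, 6 were higher in CE+BZA (11.6% of all genes) and 3 in BZA (8.92%), and 0 were higher in E2 or CE (6.52% and 10.1%). By the same measure 1 was lower in E2, 1 in CE and 1 in BZA (8.61%, 8.45% and 7.47% of all genes) and 0 in CE+BZA (9.55%), and 0 passed the FDR threshold by limma. Socs3, the inhibitor of cytokine signalling through STAT3, was 1.60 above Veh in CE+BZA, 1.07 in CE, 1.09 in BZA and 0.25 in E2. Bcl3, a regulator of NF-κB, was at 1.32 in BZA and 1.19 in CE+BZA, and Nr4a1, an orphan nuclear receptor, at 1.06 in CE and 0.88 in CE+BZA. Arc was the exception at −1.25 in E2, CE and BZA, but 11 of 15 mice were at its lowest value, all 9 mice of those groups among them.

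The dual specificity phosphatases, relatives of Dusp1, were mixed. Of 15 the table holds Dusp2, Dusp8, Dusp14 and Dusp18, with medians of 0.21 with E2, −0.20 with CE, 1.07 with BZA and 0.79 with CE+BZA. Dusp14 was 1.84 above Veh in BZA and 1.60 in CE+BZA, and Dusp8 was, like Dusp1, below Veh in CE (−0.85) and above it in CE+BZA (1.27). Dusp2 was instead at 1.74 in CE and 0.32 in CE+BZA, and Dusp18 was at its lowest value in 8 of 15 mice. By limma 0 of them passed the FDR threshold, and at an unadjusted p under 0.05 with a fold above 2 there was 1 of the 4 higher in each of CE, BZA and CE+BZA (10.1%, 8.92% and 11.6% of all genes).

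Of the other CCCH zinc finger genes, relatives of Zfp36, the table holds 2 of 9. Zc3h12a, which encodes an RNase of inflammatory mRNAs, was 1.18 above Veh in CE+BZA and −0.09 in E2, and Zc3h12b was 1.06 above in CE+BZA and −0.69 in CE. Of 19 transcripts that the Zfp36 protein is known to bind, the table holds 5. The chemokine genes Ccl3 and Ccl4 had differences from Veh of −1.78 and −1.64 in CE+BZA, the group with the highest Zfp36, while Cxcl1 was 1.58 above and Ccl2 and Tnf were at −0.10 and 0.51. None of the 5 passed the FDR threshold by limma (0 genes), and at an unadjusted p under 0.05 with a fold above 2 in CE+BZA 1 was higher and 1 lower, near the 11.6% and 9.55% of all genes. The lowest values of Ccl3 and Tnf were shared by 3 mice each, and for Ccl3 2 of these were CE+BZA mice. In CE+BZA mice 1, 2 and 3 the mean of the 5 transcripts was −1.08, −0.58 and 0.90, and Zfp36 was at 0.27, 1.26 and 1.42. A part of the Zfp36 protein in these levels was not tested.

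**Figure D5:**
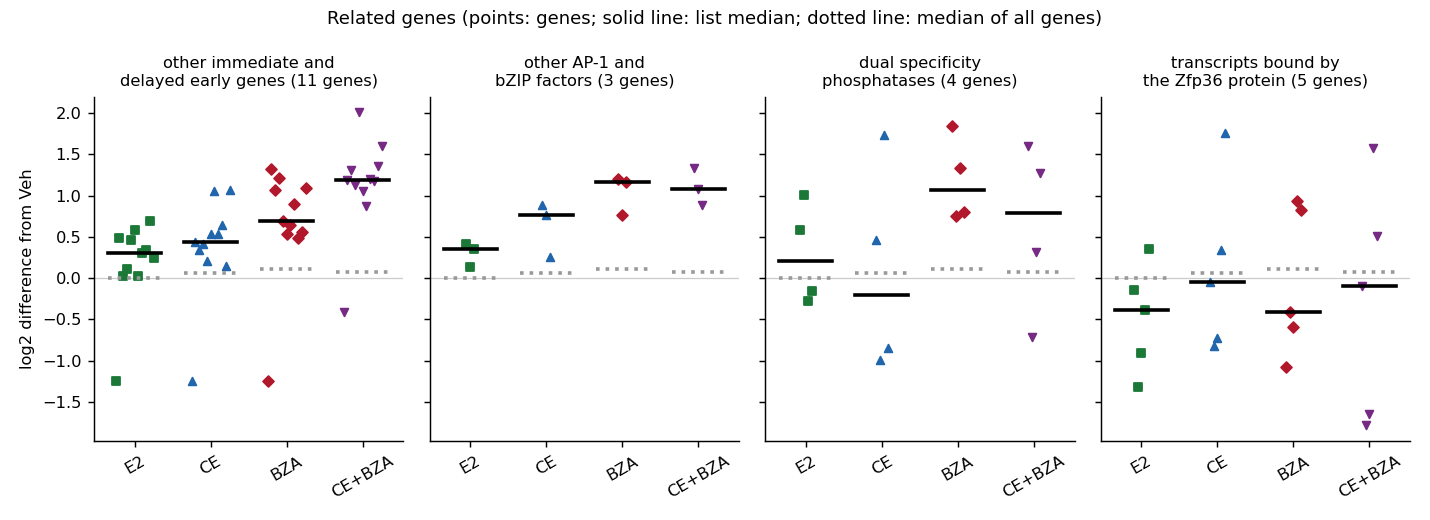
Log2 difference from Veh (y axis) in each treatment (x axis) for the genes of 4 related lists, with 1 point per gene, the list median as a solid line and the median of all 2545 genes as a dotted line. The medians of the other immediate and delayed early genes run from 0.31 in E2 to 1.19 in CE+BZA, and the transcripts bound by the Zfp36 protein lie on both sides of 0.

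Lists that often move with immediate early genes gave the setting. The heat shock genes Hspa1a and Hspa1b (2 of 12 held), whose near-identical reads may have been split between them, had differences of −0.97 and −0.94 in CE, of 1.14 and 0.96 in BZA and, in CE+BZA, of 1.0 and 1.06. Of 24 hepatic acute phase genes 12 are held, with medians of 0.38 with E2, 1.30 with CE, 1.37 with BZA and 1.39 with CE+BZA. Mt2, a metallothionein, was 1.89 above Veh over all treated mice, the serum amyloid genes Saa2 and Saa1 were 1.63 and 1.56 above, and Saa4 was 0.47 above. By the mean of this list CE mouse 3 (2.64), CE+BZA mouse 2 (2.61) and BZA mouse 4 (2.16) stood highest, and their Junb values were 0.73, 0.52 and 0.91, while CE mouse 7, with the second highest Junb (0.89), had a list mean of 0.20. Of 24 circadian, glucocorticoid and fasting genes 14 are held, with medians of 0.48, 1.08, 0.81 and 1.03 in the same order of treatments. Lpin1, Igfbp1 and Pck1 were 1.63, 1.34 and 1.23 above Veh over all treated mice and Fgf21 was 0.01 above. Of the 14 genes 12 were above Veh over all treated mice and 2 below, where 1396 of all 2545 genes were above. Veh mouse 7 was at the lowest value in 6 of the 14 genes. By limma 0 genes of these lists passed the FDR threshold in any treatment, and their part in the levels of the immediate early genes was not tested.

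Across the 15 mice, the genes most like Junb were Slc13a3, a dicarboxylate transporter (Pearson's r 0.86), Klc3 and 1700055D18Rik (0.84 each), Lbp, which encodes the lipopolysaccharide binding protein (0.84), and Stat3, the transcription factor of interleukin 6 signalling (0.83). The most opposite were Pdgfd, a growth factor gene (−0.85), and A830082K12Rik (−0.83). The genes most like Zfp36 were Spata2l (0.87), Nfkbia, the inhibitor of NF-κB (0.86), Nrbp2 (0.86), 3830408C21Rik (0.85) and Mmp3, a matrix metalloproteinase (0.82), and the most opposite were Eda2r (−0.89) and Gm14023 (−0.85). Of these, Mmp3 was at its lowest value in 9 mice and 3830408C21Rik in 5. The 5 genes of Junb and the 5 of Zfp36 had 0 in common. With Veh mouse 7 left out, 0 of the 5 genes most like Junb were again among the 5 highest, so the ranking rests on single mice.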

How the data were processed

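Liver RNA of 15 mice was sequenced, and a single table of the series was used, with 0 columns left unmatched to a mouse. Per the paper's methods and the submitters' processing notes, base calls were made with CASAVA 1.8.2, reads were mapped with TopHat and counted per gene with StrandNGS, and the DESeq normalization was applied. The notes list TopHat2 0.5 and a mouse and a human genome build without saying which was used. The labels name reads from both ends and a stranded kit, and the paper names single-end reads. The values that the authors deposited are log2 levels relative to the median of each gene, which was 0 in all 2545 genes. The rule behind the 2545 genes is not given in the sources used here.

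The log2 values entered the fit unfiltered and without a pseudocount. Limma 3.58.1 in R 4.3.3 (lmFit, eBayes) fitted the 5 group means of each gene to all mice at once, the Benjamini-Hochberg adjustment covered the whole table, and the threshold was an FDR under 0.05 with a fold change above 2. Contrasts were each treatment and all treated mice against Veh, the 6 pairs of treatments, and the departure of CE+BZA from the sum of the CE and BZA differences. The fit was tested on simulated independent normal values. These had neither the fold selection nor the shared lowest values of the real genes, so the simulation says nothing on how those affect p. Exact permutation tests and the permutation of correlations (100000 resamples) were two-sided, with scipy 1.17.1 in Python 3.11.15, and plots were drawn with matplotlib 3.10.9. No batch is given in the labels, nor whether mice share a preparation day, so p-values measure the spread between these mice. By the paper each mouse was housed alone.

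The members and lists were chosen with earlier results of these data known. Named genes were the members, every gene of a related list of which the table holds at most 6, otherwise the 3 with the largest and the 1 with the smallest absolute difference of all treated mice, and the 5 genes with the highest and 2 with the lowest Pearson's r with Junb or Zfp36. Alternatives were quantile normalization, centring, a filter on genes at their lowest value, no shrinkage, a variance trend, the replicate number as a block, a fit of only the compared groups, an unadjusted p, no fold threshold and each mouse left out; leaving out CE mouse 3 and BZA mouse 3 together was chosen after seeing the data. A result of the related lists is not reported here.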

Additional observations from a re-analysis of the deposited data

Results flagged for a closer look

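For a pair of member differences every mouse of one treatment was above the Veh mean and every mouse of the other treatment below it. Fos was 2.02 higher on the log2 scale in BZA than in E2, with the 3 BZA mice above and the 3 E2 mice below the Veh mean, and the direct limma test of that difference gave an FDR of 0.266. Dusp1 was 2.72 higher in CE+BZA than in CE, with the same arrangement of mice, and the direct limma test gave an FDR of 0.157. Neither passed the threshold.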

How the results depend on the processing

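Outside the fits that leave out single mice, 479 values kept their direction and their side of the threshold, 19 passed only by an unadjusted p, 7 changed sign and 7 counts moved by over 1.5 times, and the count of members past the FDR threshold was 0 in every comparison under each setting other than the unadjusted p. With an unadjusted p in place of the FDR the counts were 2 in CE, 2 in BZA, 3 in CE+BZA and 1 for all treated mice, and Junb passed with 1.50, 1.10, 1.17 and 1.07 in those comparisons and Zfp36 with 1.36 in CE+BZA. Differences near 0 changed sign under quantile normalization (Dusp1 in E2, −0.15) and without CE mouse 3 and BZA mouse 3 (Fos in CE, −0.05). The scalings moved the median difference of all genes by at most 0.08. The cause of these changes was not tested.

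With the replicate number as a block, 0 members passed in any comparison, and the values that changed sign were Egr1 in E2 (−1.01), Dusp1 in E2 (−0.15), Fos in CE (−0.13), Egr1 in CE+BZA (0.23) and Fos in all treated mice (−0.37). The labels do not say whether equal numbers pair the mice, and correlations of deviations from means of 3 mice cannot settle it. Same-numbered mice of different groups correlated in their deviations with r of −0.049 to 0.098 over 13 pairs, and 2 of 12 mice correlated best with their own number.

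With 1 mouse left out at a time, 0 members passed the FDR threshold in any comparison. The difference of Zfp36 in CE ran from −0.04 to 0.42, of Fos in CE from −0.05 to 0.64, of Egr1 in E2 from −0.68 to 0.66 and in CE+BZA from −0.59 to 0.29. Dusp1 ran from −0.48 to 0.84 in E2 and from −1.32 to 0.01 in CE, and Fos in all treated mice from −0.01 to 0.63. The r of Junb and Zfp36 ran from 0.21 without Veh mouse 7 to 0.54 without CE mouse 3, and its permutation p was under 0.05 without CE mouse 3 (0.0434) or BZA mouse 4 (0.0484). Of the 5 genes most like Junb, 0 to 5 were again among the 5 highest, and 1 to 5 of those most like Zfp36. With Spearman's rho 2 and 1 were, and with quantile normalization 3 for Junb. A fit with only the groups compared is the same fit for all treated mice against Veh. The depth per mouse is unknown, and 3 mice per group limited the precision to an SE of 0.47 to 0.75 for a member's difference from Veh.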
